A study of Homo sapiens with 54 samples.

Results

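Tumours that had relapsed after castration (CRPC, 10 tumours) were compared with tumours taken at the response to castration (POST-CX, 8 tumours), which made 18 of the 54 tumours of the series. Members were chosen by the sample group in the labels, and 1 POST-CX tumour was left out of the main comparison because its deposited human TPM summed to under 300000, so 10 CRPC and 7 POST-CX tumours remained. All tumours were xenografts of LNCaP, a human prostate cancer line that depends on androgen, injected under the skin of the flank of male NOD-SCID mice, a strain without a working adaptive immune system. The mice were 5 to 6 weeks old on arrival, no mouse gave more than 1 tumour, and each tumour started from 1000000 cells of clone FGC of the line, so that the tumours share 1 cell source.

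Both groups came from mice castrated by surgery when the tumour measured about 200 mm3. POST-CX tumours were collected 1 week later, at the first low point of prostate-specific antigen (PSA) in serum. CRPC tumours were collected once serum PSA was back at its level before castration, or once the tumour reached 1000 mm3. PRE-CX tumours (9 tumours, mock surgery, collected at 1000 mm3) served as the reference with testicular androgen. The enzalutamide groups (ENZS and ENZR, castrated and then given 10 mg/kg of this antiandrogen) entered the fit only to share the estimate of the spread. Because the 2 groups were sampled at different tumour sizes and times, relapse, tumour size and time since castration cannot be told apart.

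Testosterone and dihydrotestosterone switch on genes of the prostate lineage such as KLK3, the gene of PSA, and hold other genes down. Castration removes testicular androgen, the tumour stops growing or shrinks, and serum PSA falls. Tumours that return under castrate hormone levels are called castration-resistant, and in many of them some androgen-induced genes are again active, while genes that androgen holds down in intact animals may stay high.

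Values were TPM of human genes, which count transcripts after correction for gene length relative to a fixed total, rescaled so that each tumour summed to 1000000, and differences are given as log2(TPM + 1) with the standard error (SE) of limma, a linear model fitted over all genes. A positive difference means a higher value in CRPC. Of 60642 symbols, 17733 reached 1 TPM in at least 7 tumours and were tested. A gene passed at a Benjamini-Hochberg adjusted p under 0.05, and was called when its log2 difference was also at least 1 in size. These are bulk tumours, so that fewer cells of a type and less RNA per cell cannot be told apart.

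Markers of prostate cancer cells were high in both groups. Of 14 listed markers, ACP3 was not found under that symbol. The other 13 summed to between 4300 and 7096 TPM in the 7 POST-CX tumours used and between 6991 and 12073 TPM in CRPC. This sum largely follows KLK3, which had medians of 1709 and 4690 TPM, beside median sums of 6342 and 9449 TPM. Other markers went both ways, so the sum does not measure cancer cell content. EPCAM, an epithelial adhesion protein, had medians of 189 and 171 TPM, and KRT18, a keratin of glandular epithelium, had medians of 383 and 384 TPM. Human TPM as deposited summed to 27.9% to 94.4% of 1000000, the total over human and mouse, in the 8 POST-CX tumours, with a median of 88.4%, and 77.1% to 97.0% in the 10 CRPC tumours, with a median of 93.9%. The difference in means was 13.4 percentage points over all 18 tumours (two-sided exact permutation test, p = 0.0965) and 6.15 without the tumour left out (exact p = 0.217). The human genes of 33 listed stroma and blood markers summed to between 20.6 and 44.3 TPM in the 7 POST-CX tumours used and between 28.2 and 113 TPM in CRPC. In the POST-CX tumour left out they summed to 54.7 TPM, inside the CRPC range. Mouse reads do not enter these values, so low levels do not show how much host tissue a tumour held. PTPRC (leukocytes), PECAM1 (endothelium) and HBB (red cells) each stayed below 0.2 TPM in every tumour of both groups, and CKM and S100A8 were listed at 0 throughout.

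Few genes separated relapsed tumours from responding ones. limma called 15 genes, 4 higher in CRPC (0.0226% of the genes tested) and 11 lower (0.062%). At an adjusted p under 0.05 without the size limit there were 40 genes, 6 higher (0.0338%) and 34 lower (0.192%). By unadjusted p under 0.05, 499 genes were higher (2.81%) and 1933 lower (10.9%), and the median difference over all genes was -0.08. In the same fit, CRPC differed from PRE-CX in 2635 genes that were higher (14.9%) and 1135 that were lower (6.4%), and POST-CX differed from PRE-CX in 3300 higher (18.6%) and 789 lower (4.45%). These comparisons share tumours and are set side by side only.

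The count of 40 depended on the scaling and on single tumours. With each tumour centred on its median gene, which moved the median of all genes to 0.04, 41 genes passed as higher and 17 as lower (8 and 6 called), so that the balance of directions turned. With all 54 tumours 11 genes passed, and with all 54 as deposited 0 passed by limma, where 1193 had an unadjusted p under 0.05 and the median of all genes was 0.17. Fitted on the CRPC and POST-CX tumours alone, 65 genes passed as higher and 117 as lower, among them 38 of the 40. Leaving out 1 tumour moved the count over 1.5 times in 12 of 17 cases. It was 132 without POST-CX mouse 48, whose human share was 59.7%, 106 without CRPC mouse 29 and 74 without CRPC mouse 43. It was 26 without POST-CX mouse 18, 13 without CRPC mouse 35, 11 without POST-CX mouse 99, 6 without CRPC mouse 107 or POST-CX mouse 44, 5 without POST-CX mouse 66, 86 or 92, and 4 without CRPC mouse 47.

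**Figure D1:**
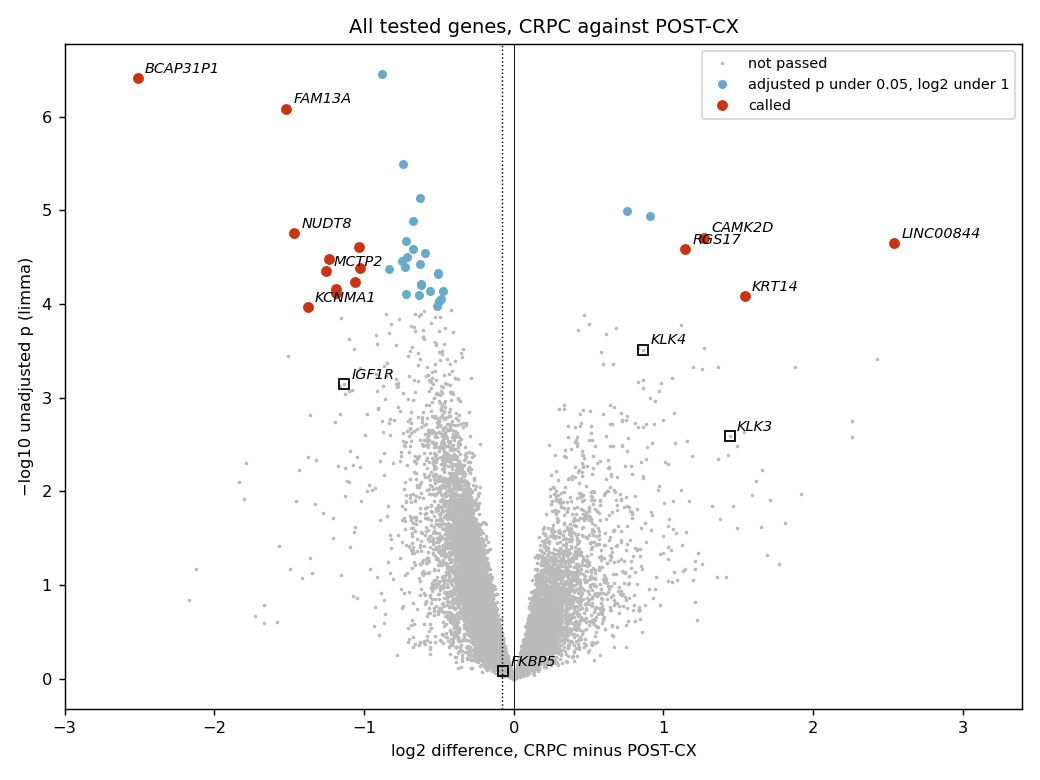
All 17733 tested genes, with the log2 difference CRPC minus POST-CX on the x axis and the unadjusted limma p as −log10 on the y axis. Red points are the 15 called genes, blue points the 25 further genes at an adjusted p under 0.05, squares mark 4 androgen-regulated or growth genes that did not pass, and the dotted line is the median of all genes at -0.08. The cloud leans to lower values in CRPC.

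The 4 genes called higher in CRPC had every CRPC tumour above each of the 7 POST-CX tumours used, which held for 0.135% of all genes tested. LINC00844, a long non-coding RNA on chromosome 10 (RefSeq GRCh38.p14, as for all positions here, 58999518 to 59001617), was at 1.45, 2.05 and 3.74 TPM in POST-CX (lowest, median and highest of 7) and at 7.59, 16.3 and 47.6 TPM in CRPC (of 10). Its log2 difference was 2.54 (SE 0.55, limma adjusted p = 0.031). PRE-CX tumours had a median of 10.4 TPM, so the relapsed tumours lay in the range of the intact ones in 7 of 10 cases, and above it in the other 3. POST-CX was below PRE-CX by 1.96 on the log2 scale in the same fit (adjusted p = 0.00921).

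CAMK2D, a calcium and calmodulin-dependent kinase subunit (chromosome 4, 113451032 to 113761738), was at 5.23, 13.5 and 20.9 TPM in POST-CX and at 23.6, 30.5 and 40.7 TPM in CRPC. The difference was 1.27 (SE 0.27, limma adjusted p = 0.031). PRE-CX had a median of 10.6 TPM, and CRPC was above PRE-CX as well, by 1.23 (adjusted p = 0.000303). RGS17, a protein that shortens G protein signalling (chromosome 6, 153004459 to 153131282), had medians of 1.15 TPM in PRE-CX, 1.69 in POST-CX and 4.75 in CRPC, and all 10 CRPC tumours exceeded all PRE-CX tumours too. Its difference from POST-CX was 1.15 (SE 0.25, adjusted p = 0.031).

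KRT14, a keratin of basal epithelium (chromosome 17, 41582279 to 41586895), was a lowly expressed gene outside the 5 TPM limit for naming and is given because there were only 4 such calls. It was at 0.157, 0.482 and 1.34 TPM in POST-CX and at 1.34, 3.7 and 5.79 TPM in CRPC, which differed by 1.55 (SE 0.36, adjusted p = 0.0406). KRT5, the usual partner of KRT14 in basal cells, and KRT1, a keratin of skin, were listed at 0 in all 10 CRPC tumours. Of the 29 alternative analyses, the adjusted p stayed under 0.05 in 19 for LINC00844, 19 for CAMK2D and 20 for RGS17, and in 10 of 28 for KRT14. With all tumours included, only LINC00844 of these 4 still passed (adjusted p = 0.0491). The POST-CX tumour left out had 5.92 TPM of RGS17 and 1.86 TPM of KRT14, both inside the CRPC range.

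**Figure D2:**
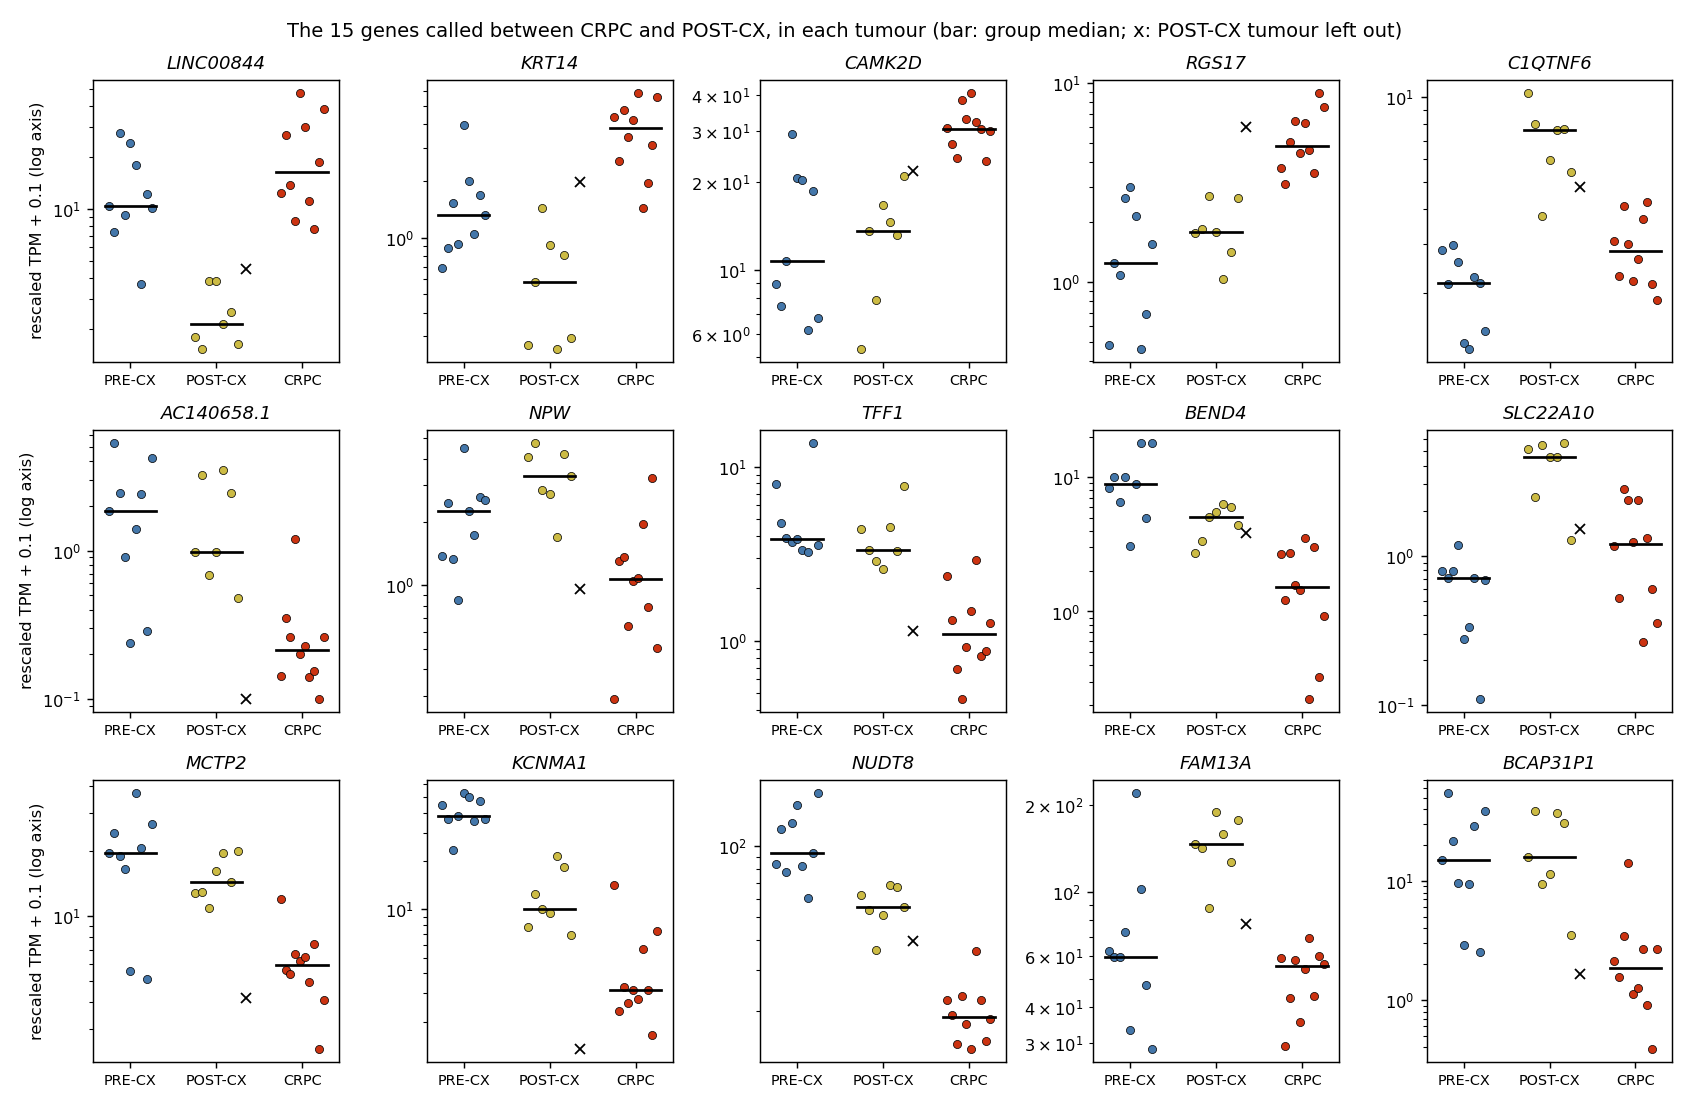
Rescaled TPM plus 0.1 on a log axis for the 15 called genes, with 1 point per tumour in PRE-CX (blue, 9), POST-CX (yellow, 7) and CRPC (red, 10), a bar at the group median and a cross for the POST-CX tumour left out. LINC00844, KRT14, CAMK2D and RGS17 have all CRPC points above the yellow points, while FAM13A and NUDT8 have all CRPC points below them. The cross lies inside the CRPC range for KRT14 and RGS17, and below the CRPC median for KCNMA1.

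The 11 genes called lower in CRPC fell into different courses when the PRE-CX medians were set beside them. FAM13A (chromosome 4, 88725960 to 89057185), was at 87.8, 145.8 and 189 TPM in POST-CX and at 29.3, 55.2 and 69.4 TPM in CRPC. The groups did not overlap, as for 0.141% of genes tested in this direction. Its difference was -1.52 (SE 0.27, limma adjusted p = 0.00489), it passed in 28 of 29 alternatives, and it had the highest POST-CX median of the called genes. PRE-CX tumours ran from 28.6 to 219.9 TPM with a median of 59.6 TPM, so that POST-CX had the highest median but not the highest tumour. C1QTNF6, a secreted protein of the C1q and TNF-related family (chromosome 22), had medians of 2.07, 7.53 and 2.73 TPM in PRE-CX, POST-CX and CRPC and differed by -1.03 (SE 0.23, adjusted p = 0.0326). SLC22A10, a member of the organic anion transporter family, ran from 0.604 to 4.47 to 1.1 TPM over the same medians.

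NUDT8 and KCNMA1 were lower in POST-CX than in PRE-CX and lower again in CRPC. NUDT8, a mitochondrial nudix hydrolase (chromosome 11, 67627938 to 67629937), was at 60.6, 93.5 and 169 TPM in PRE-CX, at 36.1, 55.4 and 68.8 TPM in POST-CX and at 13.7, 18.8 and 35.9 TPM in CRPC. Its difference from POST-CX was -1.47 (SE 0.31, limma adjusted p = 0.031), with no overlap between the groups. KCNMA1, the pore subunit of the large-conductance potassium channel (chromosome 10, 76869602 to 77637808), had medians of 37.7, 9.9 and 3.06 TPM, and 8 of 10 CRPC tumours were below the lowest POST-CX tumour. It differed by -1.38 (SE 0.33, adjusted p = 0.0479), passed in 7 of 29 alternatives, and was at 1.26 TPM in the POST-CX tumour left out. BEND4, a gene with a BEN domain, followed the same order with medians of 8.79, 4.94 and 1.41 TPM.

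BCAP31P1 and MCTP2 had closer medians in PRE-CX and POST-CX, with neither passing between these, and lower ones in CRPC. BCAP31P1, a pseudogene on chromosome 16 (33987962 to 33991551), was at 3.41, 15.7 and 38.5 TPM in POST-CX and at 0.288, 1.74 and 14.0 TPM in CRPC, a difference of -2.51 (SE 0.43, limma adjusted p = 0.00346). It passed in 28 of 29 alternatives, like FAM13A. Its reads are hard to tell from those of the parent gene BCAP31, and the value is uncertain for that reason. BCAP31 itself had medians of 307 TPM in POST-CX and 316 in CRPC. MCTP2, a membrane protein with C2 domains (chromosome 15, 94231366 to 94483952), had medians of 19.5, 14.3 and 5.83 TPM and differed by -1.25 (SE 0.28, adjusted p = 0.0329). TFF1, a secreted trefoil peptide, had medians of 3.75, 3.23 and 0.993 TPM, and every CRPC tumour was below every PRE-CX tumour. NPW, the precursor of neuropeptide W, and AC140658.1, an unnamed transcript, were below 5 TPM on average in both groups and differed by -1.06 and -1.04.

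The other 25 passing genes had smaller differences, 2 of them higher and 23 lower in CRPC. ANK1, a cytoskeletal ankyrin, had medians of 4.48 TPM in PRE-CX, 1.91 in POST-CX and 4.45 in CRPC (difference 0.91, SE 0.19, limma adjusted p = 0.0289). C17orf58, of unknown function, had medians of 18.8, 8.63 and 14.9 TPM (difference 0.76). Both had all CRPC tumours above the 7 POST-CX tumours used, but the tumour left out was at 4.48 TPM for ANK1 and at 18.5 TPM for C17orf58. FIGNL1, an ATPase of homologous recombination, had medians of 25.5, 40.5 and 26.4 TPM with no overlap between CRPC and the POST-CX tumours used, the tumour left out being at 22.7 TPM (difference -0.63, SE 0.14, adjusted p = 0.0326). MRPS27, a protein of the mitochondrial ribosome, had medians of 76.2, 125 and 87.5 TPM (difference -0.51, SE 0.12, adjusted p = 0.0477). These 4 were picked after their values were seen.

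KLK3 in relapse lay in the range of intact tumours, although its difference from POST-CX did not pass. It was at 935, 1709 and 3203 TPM in POST-CX and at 2825, 4689.5 and 6828 TPM in CRPC, against 2129, 4679 and 6769.6 TPM in PRE-CX. Of 10 CRPC tumours, 9 were above every POST-CX tumour, and 9 lay in the PRE-CX range with the other above it (CRPC minus PRE-CX 0.05, SE 0.42). CRPC minus POST-CX was 1.44 (SE 0.46, limma adjusted p = 0.134), with adjusted p between 0.00435 and 0.451 over the 29 alternatives, 2 of which passed. Those 2 were the fits on CRPC and POST-CX tumours alone (adjusted p = 0.00589) and with PRE-CX added. Serum PSA, the product of KLK3, set the collection of POST-CX tumours and of those CRPC tumours that were not collected for their size. The difference from POST-CX and the closeness to PRE-CX are therefore tied to the sampling and are given as a description. The labels do not tell which CRPC tumours met which endpoint. The CRPC tumour that overlapped was mouse 47, and the highest POST-CX value was that of mouse 48, without which the difference was 1.60 with an adjusted p of 0.0824.

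KLK3 and KLK2 are neighbouring kallikrein genes, and KLK3 has the best known androgen response element next to its start. Such elements consist of repeats of the 6-base unit AGAACA, which face each other across a gap of 3 bases. The 250 bases before the start of each gene are shown from RefSeq (GRCh38.p14, plus strand, 5′ to 3′) for KLK3 (chr19:50854665-50854914), for KLK2 (chr19:50873189-50873438) and for LINC00844 (chr10:58999268-58999517), the called gene with the largest rise. Capitals mark the stretch beginning with AGAACA in KLK3, its counterpart in KLK2, and the unit with a facing TGT in LINC00844.
KLK3: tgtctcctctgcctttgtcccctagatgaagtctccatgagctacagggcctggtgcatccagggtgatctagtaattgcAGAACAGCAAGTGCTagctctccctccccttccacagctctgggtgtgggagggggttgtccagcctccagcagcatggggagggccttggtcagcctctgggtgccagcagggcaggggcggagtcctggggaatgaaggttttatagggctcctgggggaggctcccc
KLK2: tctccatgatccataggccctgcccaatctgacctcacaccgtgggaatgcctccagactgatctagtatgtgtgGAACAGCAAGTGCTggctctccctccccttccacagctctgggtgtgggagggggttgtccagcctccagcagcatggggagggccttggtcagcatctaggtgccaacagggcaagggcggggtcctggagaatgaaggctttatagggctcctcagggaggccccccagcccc
LINC00844: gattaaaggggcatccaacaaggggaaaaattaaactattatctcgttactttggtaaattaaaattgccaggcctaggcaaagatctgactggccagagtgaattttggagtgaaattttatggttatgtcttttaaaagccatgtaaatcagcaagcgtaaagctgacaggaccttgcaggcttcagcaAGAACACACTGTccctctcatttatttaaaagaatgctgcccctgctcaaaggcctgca

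The KLK3 stretch lies 170 to 156 bases before the start. The 14 bases GAACAGCAAGTGCT are shared by KLK3 and KLK2 and by no other of the 27305 promoters searched on both strands, and the longest run that the 2 windows share is 80 bases. In LINC00844 the pattern of AGAACA, any 3 bases and TGT, chosen after its sequence was seen, starts 59 bases before the start. It occurs in 78 of all promoters (0.286%) and in 6 of the 11010 tested genes with a promoter in the table (0.0545%). Among the 28 androgen-induced genes with a promoter, 0 have this pattern. AGAACA alone, which both patterns overlap, is in 12.4% of all promoters, in 7.72% of those of tested genes and, of the 28 androgen-induced genes with a promoter, in KLK3 only. A match is a description of these letters, not of binding, and promoters hold only part of such elements.

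The related kallikreins KLK4 and KLK2 had higher medians in CRPC but did not pass. KLK4 was at 179, 295 and 374 TPM in POST-CX and at 395, 469 and 642 TPM in CRPC, with no overlap. It differed by 0.87 (SE 0.22, limma adjusted p = 0.0652) and passed in 3 alternatives, including median centring. KLK2 was at 50.6, 101 and 223 TPM in POST-CX and at 94.9, 229.8 and 544 TPM in CRPC (difference 1.03, SE 0.52, limma adjusted p = 0.373). In PRE-CX it was at 190, 465 and 1307 TPM, so that its CRPC median stayed below the intact one. For KLK2, 6 CRPC tumours were above all POST-CX tumours.

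FKBP5, TMPRSS2 and STEAP4 stayed below the intact level in CRPC. FKBP5, a co-chaperone of steroid receptors, was at 25.5, 35.4 and 36.7 TPM in POST-CX and at 19.4, 29.9 and 70.6 TPM in CRPC, against 91.8, 152 and 423 TPM in PRE-CX. Its difference between CRPC and POST-CX was -0.07 (SE 0.33, limma adjusted p = 0.952), and its sign turned with the scaling, to 0.04 after median centring. All 10 CRPC tumours were below the lowest PRE-CX tumour, and CRPC minus PRE-CX was -2.32 (adjusted p = 1.65e-07). STEAP4, a metalloreductase, had medians of 13.9, 0.402 and 0.746 TPM, again with all CRPC tumours below all PRE-CX tumours. TMPRSS2, a membrane serine protease, had medians of 452, 181 and 248 TPM and was between the other groups, with 6 CRPC tumours below the PRE-CX range.

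The ratio of KLK3 to FKBP5 within a tumour does not depend on the scaling of that tumour. It ran from 8.2 to 67.1 in PRE-CX with a median of 33.8, from 27.3 to 95.9 in POST-CX with a median of 50.6, and from 81.8 to 238 in CRPC with a median of 151. The ratio of KLK3 to TMPRSS2 had medians of 8.45, 9.7 and 17.5 in the same order. Both ratios were chosen after the values were seen and carry no test. Their numerator KLK3 is the gene of serum PSA, which set part of the collection, so that the ratios are tied to the sampling too.

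**Figure D3:**
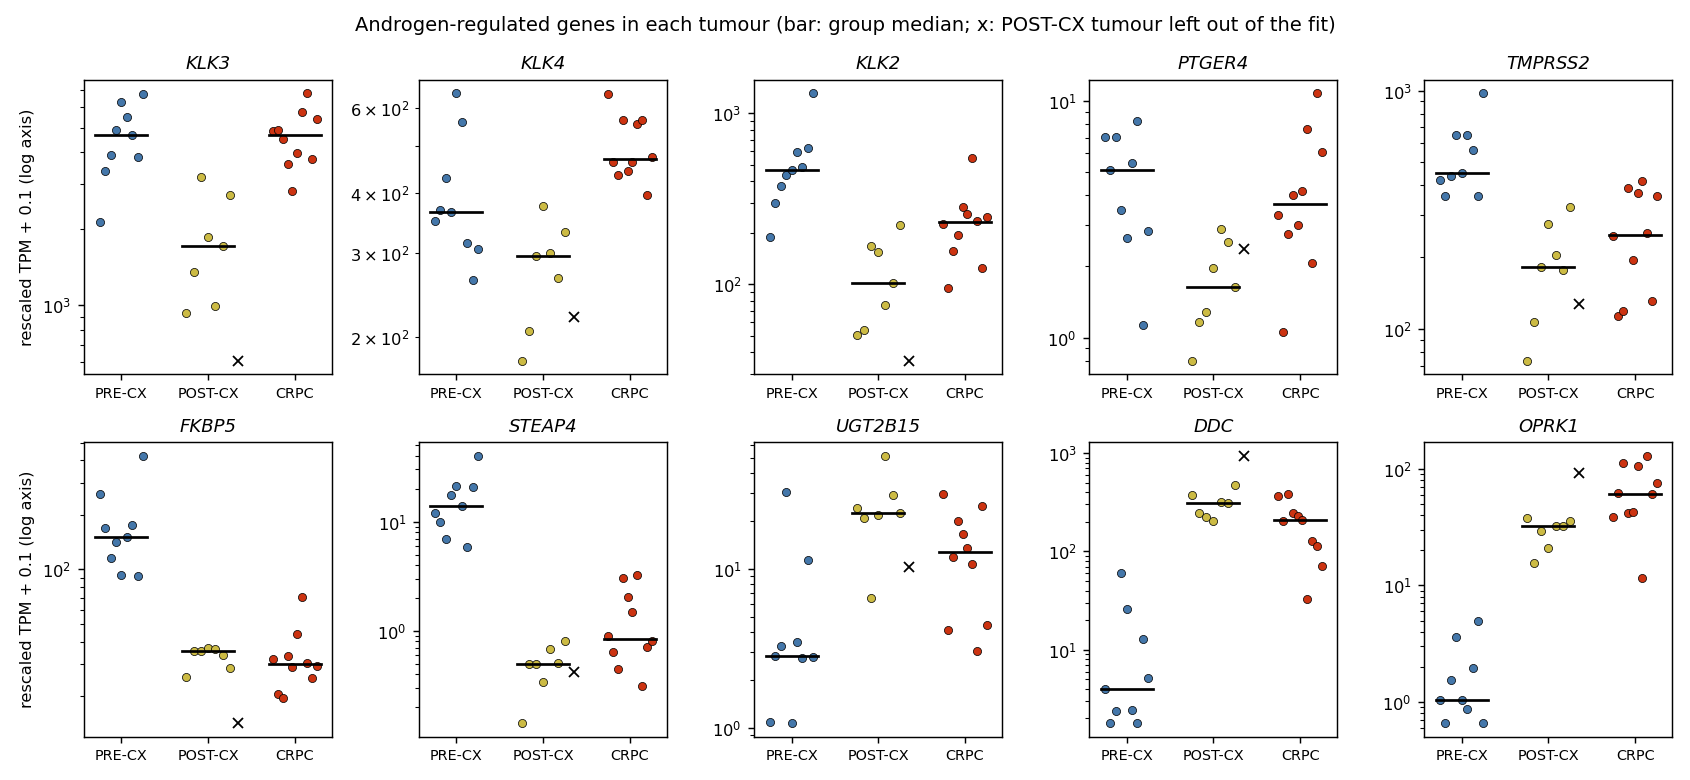
Rescaled TPM plus 0.1 on a log axis for 10 androgen-regulated genes, with 1 point per tumour, a bar at each group median and a cross for the POST-CX tumour left out. KLK3 and KLK4 in CRPC (red) are at the PRE-CX (blue) level or above it, whereas FKBP5 and STEAP4 stay near the POST-CX (yellow) level and OPRK1 stays above every PRE-CX point, as DDC does in 9 of 10 CRPC tumours. The KLK2 median in CRPC lies between those of POST-CX and PRE-CX.

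None of the 35 tested androgen-induced genes passed in limma, with 9 higher and 1 lower at an unadjusted p under 0.05. At that limit 2.81% of all genes were higher and 10.9% lower. Their median difference was 0.39 against -0.08 for all genes, and 27 of 35 were above 0. The median was 0.22 without POST-CX mouse 18 and 0.26 without CRPC mouse 81. Beside POST-CX minus PRE-CX, where 28 of 35 passed as lower with a median of -1.20, CRPC minus PRE-CX had 22 passing as lower with a median of -0.88. PTGER4, a prostaglandin E2 receptor, had medians of 5.0, 1.54 and 3.56 TPM in PRE-CX, POST-CX and CRPC. NDRG1, which also answers to hypoxia, had 443, 124 and 202 TPM, and SLC45A3, a transporter specific to prostate, had 161, 29.4 and 39.0 TPM. ORM1, an acute-phase protein with a close paralog, had 35.8, 0.67 and 0.365 TPM. MPHOSPH9, a centrosome protein, had 81.9, 44.8 and 35.2 TPM and was the member that was lower at an unadjusted p under 0.05.

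DDC and OPRK1, of the androgen-repressed list, stood above the intact level in relapse as they did after castration (CRPC minus PRE-CX 4.49 and 4.57, limma adjusted p = 1.88e-08 and 7.91e-11). DDC, the aromatic amino acid decarboxylase, had medians of 3.88, 309.8 and 208 TPM, and 4 CRPC tumours were below the lowest POST-CX tumour (difference -0.87, SE 0.58, adjusted p = 0.516). OPRK1, the kappa opioid receptor, had medians of 0.936, 32.0 and 61.2 TPM. In 9 CRPC tumours it was above and in 1, mouse 81 at 11.5 TPM, below all 7 POST-CX tumours used (difference 1.0, SE 0.49, adjusted p = 0.355). The tumour left out had 92.6 TPM, inside the CRPC range.

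None of the 12 androgen-repressed genes tested passed between CRPC and POST-CX in limma, with 1 higher at an unadjusted p under 0.05, and their median difference was -0.26. Against PRE-CX, 8 of the 12 passed as higher and 0 as lower in POST-CX, with a median of 1.55. In CRPC 5 passed as higher and 1 as lower, with a median of 1.16, so that DDC and OPRK1 were far above the list median. Over all genes 18.6% and 4.45% passed in POST-CX, and 14.9% and 6.4% in CRPC. UGT2B15 and UGT2B17, which attach glucuronic acid to androgens and so inactivate them, had medians of 22.2 and 42.3 TPM in POST-CX and of 12.7 and 31.5 TPM in CRPC. These paralogs share much sequence, and their split is uncertain. Of 20 genes of androgen synthesis and inactivation tested none passed in limma, with 1 higher and 3 lower at an unadjusted p under 0.05. The shares of all genes, to set beside this list and the androgen-repressed one, were 2.81% higher and 10.9% lower. SRD5A1, which reduces testosterone to dihydrotestosterone, had medians of 23.5 TPM in POST-CX and 17.3 TPM in CRPC, with 8 CRPC tumours below the range of the POST-CX tumours used, and the tumour left out at 19.97 TPM (difference -0.39, SE 0.19, adjusted p = 0.344). HSD17B11, a 17-beta hydroxysteroid dehydrogenase, had 21.1 and 10.8 TPM (difference -0.69, SE 0.21, adjusted p = 0.128). FOXA1 and HOXB13, transcription factors of the prostate lineage, had medians of 309 and 179.7 TPM in POST-CX and of 268 and 165 TPM in CRPC. NR3C1, the glucocorticoid receptor, stayed at 1.14 TPM or less in all 10 CRPC tumours.

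Genes of hypoxia and glycolysis had mostly positive differences. Of 35 tested, 33 were above 0, and the median difference was 0.46 against -0.08 for all genes. None passed in limma, with 9 higher and 0 lower at an unadjusted p under 0.05, beside 2.81% and 10.9% of all genes. POST-CX minus PRE-CX had 21 passing as lower with a median of -0.85, and CRPC minus PRE-CX 4 with a median of -0.39. ALDOC, the aldolase of brain and of many tumours, was at 37.5, 51.4 and 63.5 TPM in POST-CX and at 65.4, 93.1 and 155 TPM in CRPC, without overlap (difference 0.97, SE 0.27, limma adjusted p = 0.0958). SLC2A1, the glucose transporter GLUT1, had medians of 27.0 and 38.8 TPM (difference 0.67, SE 0.20, adjusted p = 0.116), and 8 CRPC tumours were above the POST-CX range. BNIP3, a mitochondrial protein induced by hypoxia, had 109.9 and 216 TPM (difference 0.92, SE 0.30, adjusted p = 0.141). PGK1, phosphoglycerate kinase, had 329.7 and 476 TPM.

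CA9, a carbonic anhydrase induced by hypoxia, was uneven within CRPC, from 0.619 to 19.1 TPM with a median of 2.34, and 3 tumours were above the POST-CX range (difference 1.03, SE 0.60, limma adjusted p = 0.446). VEGFA, the main angiogenic factor, had medians of 76.6 TPM in POST-CX and 105 in CRPC. LOX, a collagen cross-linking oxidase also induced by hypoxia, went against the list. It had medians of 33.3, 0.753 and 0.32 TPM in PRE-CX, POST-CX and CRPC, and all CRPC tumours were below all PRE-CX tumours. PLOD2, a collagen lysyl hydroxylase of the angiogenic and matrix list, had 23.0, 2.81 and 13.9 TPM, a difference from POST-CX of 1.71 (SE 0.66, adjusted p = 0.227). PRE-CX tumours were collected at 1000 mm3, CRPC tumours at that size or at PSA recurrence, and POST-CX tumours 1 week after surgery, so that size and relapse cannot be told apart here.

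Cholesterol synthesis genes also had mostly positive differences. Of 25 cholesterol synthesis genes tested, 21 were above 0, with a median of 0.21. None passed in limma, with 10 higher and 2 lower at an unadjusted p under 0.05, beside 2.81% and 10.9% of all genes. INSIG1, which holds the sterol sensor in the endoplasmic reticulum, had medians of 38.3 and 56.8 TPM (difference 0.64, SE 0.21, adjusted p = 0.142). IDI1, isopentenyl diphosphate isomerase, was higher in 9 of 10 CRPC tumours than in any POST-CX tumour (60.6 and 81.7 TPM, difference 0.42, SE 0.14, adjusted p = 0.141). FDFT1, squalene synthase, had 157 and 204 TPM. HSD17B7 and TM7SF2 of the same list, reductases of late sterol synthesis, were the members lower at an unadjusted p under 0.05, with medians of 35.8 and 167 TPM in POST-CX and of 25.9 and 119 TPM in CRPC. Of 25 fatty acid genes 17 were above 0, with a median of 0.12. This median was 0.07 without CRPC mouse 43 and 0.05 without CRPC mouse 81 or POST-CX mouse 18. No fatty acid gene passed in limma, with 1 higher and 2 lower at an unadjusted p under 0.05, beside the same shares. FASN had a difference of 0.00 and SREBF1 of 0.01, with SEs of 0.23 and 0.17, and the sign of both turned in some alternatives.

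**Figure D4:**
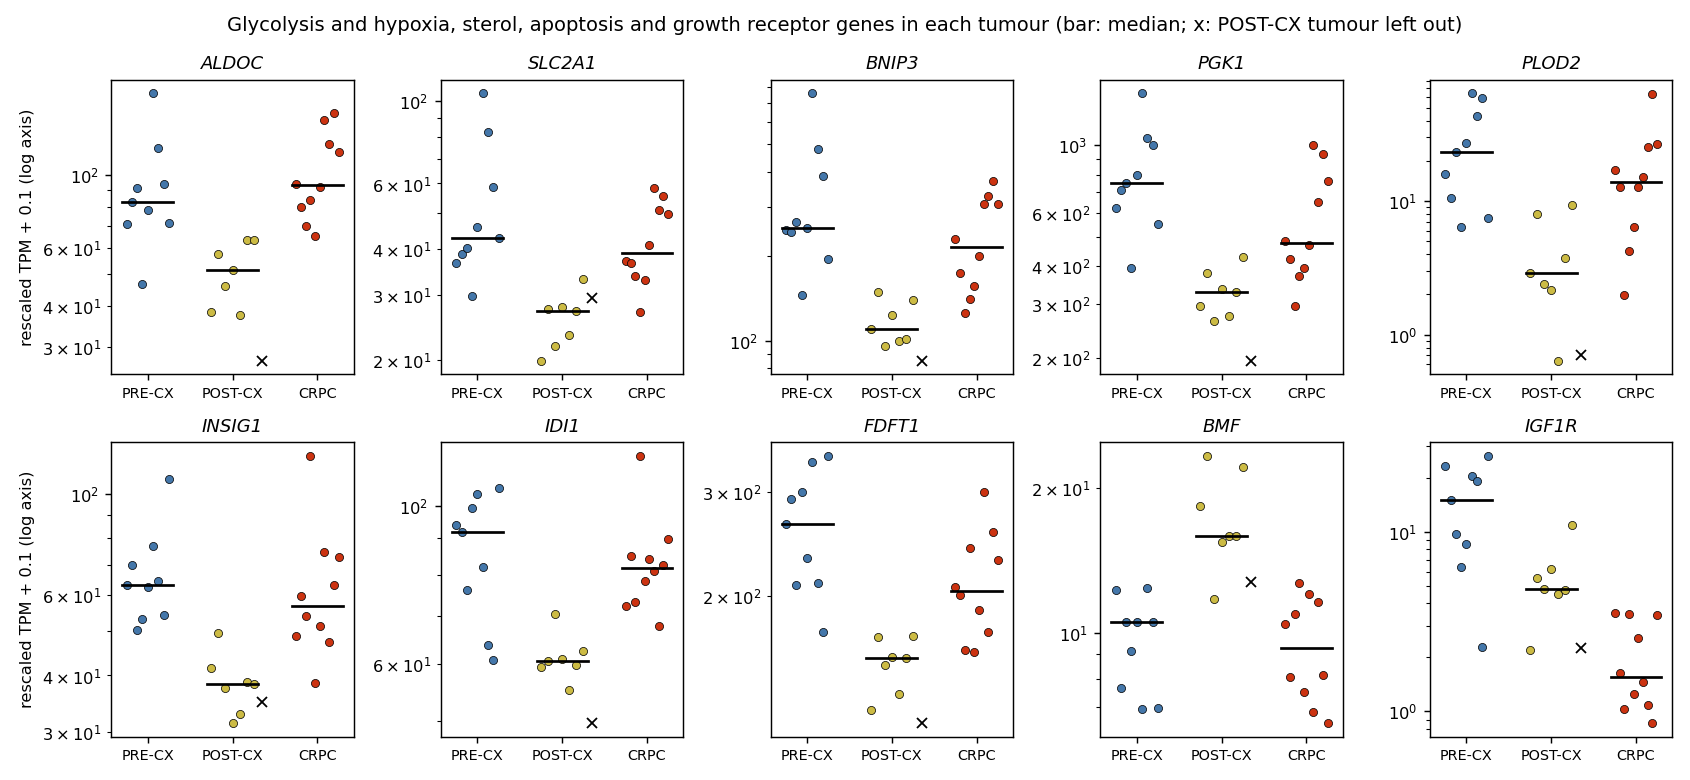
Rescaled TPM plus 0.1 on a log axis for 10 genes of glycolysis and hypoxia, sterol handling, apoptosis and growth signalling, with 1 point per tumour, a bar at each group median and a cross for the POST-CX tumour left out. In ALDOC all CRPC points are above POST-CX, whereas BMF and IGF1R have 8 and 6 CRPC points below the POST-CX range.

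Most proliferation genes had negative differences from POST-CX, by amounts that did not pass and that shrank with all tumours included. Of 55 mitosis genes 2, of 39 DNA replication genes 2 and of 39 genes of nucleotide synthesis and S phase 1 were above 0. Their medians were -0.29, -0.18 and -0.18, none passed in limma, and 0, 2 and 1 were lower at an unadjusted p under 0.05, a smaller share than the 10.9% of all genes, with none higher. With all 54 tumours rescaled the medians were -0.075, -0.047 and -0.038, against -0.065 for all genes. MKI67, the proliferation antigen, was at 8.94, 11.7 and 15.1 TPM in POST-CX and at 3.21, 9.37 and 13.3 TPM in CRPC (difference -0.40, SE 0.32, limma adjusted p = 0.601). TOP2A, topoisomerase II alpha, had medians of 31.3 and 22.0 TPM with 8 CRPC tumours below the range of the POST-CX tumours used (difference -0.58, SE 0.46, adjusted p = 0.597). The POST-CX tumour left out had 12.1 TPM of TOP2A and 5.77 TPM of MKI67, both under the CRPC medians. MCM2, a replicative helicase subunit, had 27.4 and 23.5 TPM, and CCNB1, a mitotic cyclin, had 112 and 99.6 TPM. POLE and LIG1, a polymerase and a ligase of replication, were the 2 replication genes lower at an unadjusted p under 0.05 (differences of -0.39 and -0.48). After median centring the 3 medians were -0.18, -0.07 and -0.07, and with all 54 tumours as deposited the mitosis median was 0.17, like that of all genes. In CRPC minus PRE-CX the mitosis, DNA replication and S phase medians were -0.56, -0.43 and -0.36, against 0.08 for all genes. There 2, 12 and 3 genes passed as lower in limma and 0 as higher, beside 6.4% and 14.9% of all genes.

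MYC, a growth-promoting transcription factor, had medians of 124 TPM in POST-CX and 86.3 TPM in CRPC with 7 CRPC tumours below the range of the 7 POST-CX tumours used (difference -0.52, SE 0.32, limma adjusted p = 0.466). The POST-CX tumour left out had 49.2 TPM of MYC, below every CRPC tumour. CCND1, cyclin D1, had 108 and 119 TPM and CDKN1A, an inhibitor of cyclin-dependent kinases, 61.4 and 36.6 TPM, with differences of -0.05 and -0.13. The sign for CCND1 turned after median centring (0.07). Of 18 G1 genes tested none passed in limma. At an unadjusted p under 0.05, 1 was higher and 1 lower, beside 2.81% and 10.9% of all genes.

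No gene of the apoptosis or growth receptor lists passed, and BMF, FGFR4 and IGF1R had the smallest adjusted p of these. Of 26 p53 targets and apoptosis genes none passed in limma, with 7 lower and 1 higher at an unadjusted p under 0.05, beside 10.9% and 2.81% of all genes, and a median of -0.19. BMF, a BH3-only protein that promotes apoptosis, was at 11.6, 15.8 and 23.3 TPM in POST-CX and at 6.36, 9.19 and 12.6 TPM in CRPC, and 8 CRPC tumours were below the POST-CX range (difference -0.83, SE 0.21, limma adjusted p = 0.0554). It passed in 7 of 29 alternatives. BCL2L11, which encodes BIM of the same class, had medians of 16.0 and 11.9 TPM, and MCL1, which protects from apoptosis, had 169 and 134 TPM (difference -0.44, SE 0.13, adjusted p = 0.124). These members act in opposite ways on cell death.

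IGF1R, the receptor of insulin-like growth factors, was at 2.1, 4.72 and 10.8 TPM in POST-CX and at 0.758, 1.45 and 3.42 TPM in CRPC, against a PRE-CX median of 15.0 TPM. It differed by -1.13 (SE 0.31, limma adjusted p = 0.0893) and passed in 1 of 29 alternatives, the fit on CRPC and POST-CX alone. FGFR4, a receptor of fibroblast growth factors, had medians of 1.67, 3.36 and 1.49 TPM, with 9 CRPC tumours below the POST-CX range (difference -0.69, SE 0.18, adjusted p = 0.0657). ERBB2, a receptor of the EGF receptor family, had 74.2, 150.3 and 105 TPM. Of 21 tested genes of growth factor receptors and ligands none passed in limma, with 0 higher and 4 lower at an unadjusted p under 0.05, beside the same shares of all genes.

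**Figure D5:**
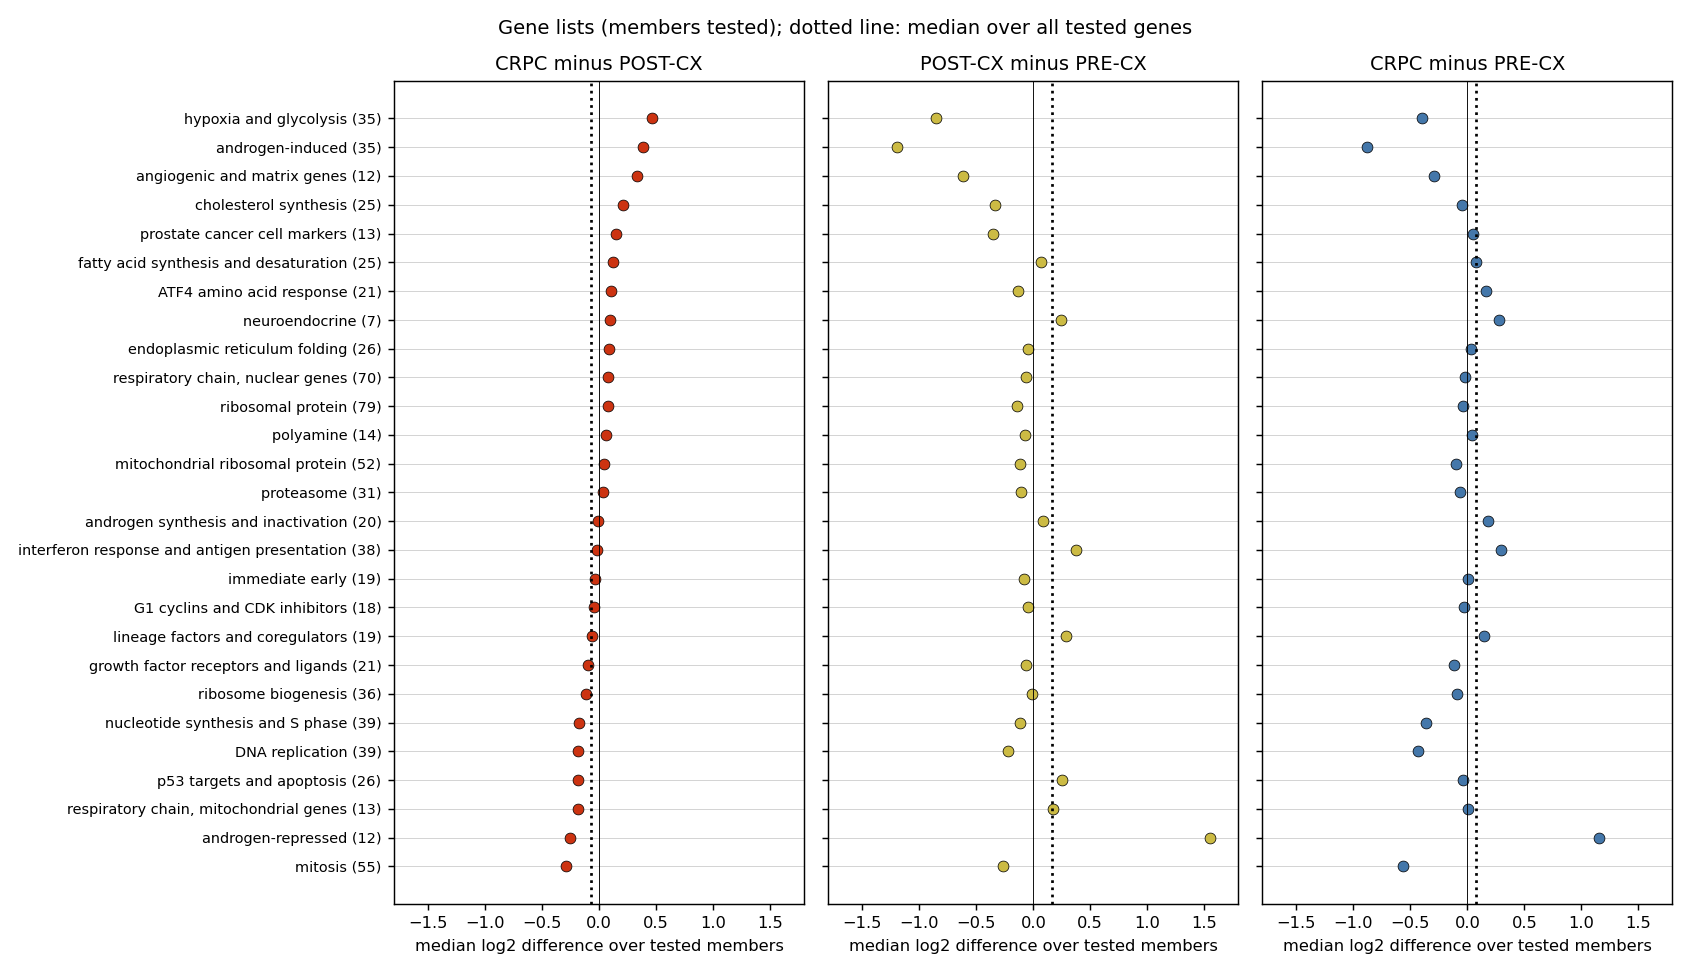
Median log2 difference over the tested members of 27 gene lists (number tested in brackets), for CRPC minus POST-CX (left), POST-CX minus PRE-CX (middle) and CRPC minus PRE-CX (right), with the median of all genes as a dotted line. Hypoxia and glycolysis (0.46) and androgen-induced genes (0.39) lie highest on the left in this setting, mitosis (-0.29) lowest. The 3 panels share tumours.

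Lists of basic cell functions differed little. Of 79 ribosomal protein genes, which have many pseudogene copies, 69 were above 0 with a median of 0.08, and of 13 respiratory genes of the mitochondrial genome none were, with a median of -0.19. MT-ND1, a subunit of complex I, had medians of 4308 TPM in POST-CX and 3346 TPM in CRPC. No gene of either list passed in limma or had an unadjusted p under 0.05. The nuclear respiratory genes (70 tested) had a median of 0.08, mitochondrial ribosomal proteins (52) of 0.04, the proteasome (31) of 0.03, ribosome biogenesis (36) of -0.11, endoplasmic reticulum folding (26) of 0.09, the ATF4 response (21) of 0.10 and interferon and antigen presentation (38) of -0.02. None passed in limma, and the 7 lists had between 0 and 4 genes higher and between 0 and 3 lower at an unadjusted p under 0.05. Over all genes 2.81% were higher and 10.9% lower at that limit. Of 24 neuroendocrine genes 7 were tested and none passed in limma, with 0 higher and 1 lower at an unadjusted p under 0.05. Their median was 0.09, with 4 of 7 above 0. In CRPC minus PRE-CX, 4 of 7 passed as higher and 0 as lower, beside 14.9% and 6.4% of all genes. CHGA, a defining marker, was at 0.064 TPM or less in all CRPC tumours and at 1.8 TPM or less in POST-CX.

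Among stroma and blood markers, 10 of 33 passed the filter and none passed the test in limma, with 2 higher and 2 lower at an unadjusted p under 0.05. The shares of all genes were 2.81% higher and 10.9% lower. DCN and LUM, proteoglycans of connective tissue, reached 19.2 and 66.4 TPM in CRPC, with medians of 3.2 and 7.98 TPM, against medians of 0.623 and 1.67 TPM in POST-CX. VWF, of endothelium, had medians of 3.26 TPM in POST-CX and 1.07 in CRPC, and COL1A1, of fibroblasts, had 8.02 and 4.28 TPM. These 4 thus lay on opposite sides of 0, and their part in the results above was not tested. They are values of human genes and do not measure the mouse host.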

How the data were processed

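RNA-seq was measured in 54 tumours. Per the labels, polyadenylated RNA with an RNA integrity number over 8 was made into strand-specific libraries and sequenced as paired ends of 125 bp at about 40 M read pairs a sample. The submitters' processing notes name FastQC 0.11.9, Trim Galore 0.6.5, STAR 2.7.2b and RSEM 1.3.3, and the study aligned reads to human GRCh38 joined with mouse GRCm38. The TPM deposited by the authors hold human genes only, are estimates by RSEM and keep no read depth, so no counting interval is given. RSEM shares reads among near-identical copies.

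Each tumour was rescaled to 1000000, which removes differences in the share of mouse reads but not in quality. The 2 tumours of the series with a total under 300000 were left out (POST-CX mouse 91 and ENZR mouse 87). Genes with 1 TPM or more in at least 7 tumours were fitted with limma 3.58.1 (R 4.3.3) on log2(TPM + 1), which understates changes of low genes, as 5 group means over 52 tumours, with the trend option and Benjamini-Hochberg adjustment. The human share was compared by a two-sided exact permutation test (scipy). The code was tested on simulated data.

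Named genes were a panel of 30, called genes averaging 5 TPM or more in whichever group was higher (up to 12 in each direction, by size of difference), and up to 4 members of each list by smallest adjusted p, of which some are not reported here. Called genes under 5 TPM, KRT5, KRT1, BCAP31, ANK1, C17orf58, FIGNL1, MRPS27, LOX and further list members were named after their values were seen. The groups, gene lists and rules were chosen with earlier results of these data known. Gene positions and promoters are from RefSeq GRCh38.p14. No 2 tumours had the same values. Mouse numbers are unique, and the labels give no batch or date. Alternatives changed the scaling, pseudocount, filter, tumours fitted and each tumour in turn. The limma p-values measure the spread between tumours of 1 cell line.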

Additional observations from a re-analysis of the deposited data

Results flagged for a closer look

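Of 72 groups of tumours examined with Dixon's test, 6 held a tumour far from the rest at the 95% level, where chance gives about 1 in 20. Genes were examined as log2(TPM + 1), while the values below are printed as TPM. In CRPC mouse 81, OPRK1 was at 11.5 TPM, the lowest of 10. In CRPC mouse 47, CCND1 was at 48.5 TPM and SREBF1 at 64.8 TPM, each the lowest of 10. CRPC mouse 43 had the highest BCAP31P1 (14.0 TPM) and the lowest human share of TPM (77.1%) of the 10 relapsed tumours. In POST-CX mouse 92, FASN was at 127 TPM, the highest of 7.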

How the results depend on the processing

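No paired analysis was possible because the groups share no mouse number. Against 40 passing and 15 called genes (4 higher and 11 lower in CRPC), counts moved over 1.5 times as follows, and the cause was not tested except where fewer genes or tumours entered. All 54 tumours gave 11 passing and 3 called (1 higher, 2 lower). Deposited TPM gave 9 and 5 (2 lower), and 0 and 0 (0 higher, 0 lower) over all 54 by limma, where 1193 genes had an unadjusted p under 0.05. Rescaling without mitochondrial genes gave 88 passing. Median centring called 8 higher and 6 lower. A pseudocount of 0.1 gave 24 passing with 7 called higher and 7 lower, and one of 5 gave 65 and 5 (2 higher, 3 lower). No filter gave 11 and 2 (0 higher, 2 lower) and a 5 TPM filter 16 and 8 (5 lower). CRPC and POST-CX alone gave 182 and 36 (13 higher, 23 lower), and with PRE-CX added 152 and 32 (15 higher, 17 lower). Leaving out each tumour gave 4 to 132 passing, 2 to 24 called, 0 to 11 called higher and 2 to 17 called lower.

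Among named genes none that reversed had passed. With all 54 tumours rescaled, FKBP5 was 0.077, NR3C1 -0.025 and SREBF1 -0.017. As deposited, FKBP5 was 0.040, HOXB13 0.051 and CCND1 0.064, and over all 54 FKBP5 was 0.36, FOXA1 0.10, HOXB13 0.24, CCNB1 0.28, MCM2 0.15, CCND1 0.29 and CDKN1A 0.11. After median centring FKBP5 was 0.043, HOXB13 0.052 and CCND1 0.065. Without mitochondrial genes FASN was -0.025 and SREBF1 -0.020. Leaving out each tumour gave -0.11 to 0.075 for CCND1, -0.088 to 0.11 for FASN, -0.20 to 0.0047 for FKBP5 and -0.076 to 0.13 for SREBF1. The medians of the androgen-induced, androgen-repressed, hypoxia and cholesterol lists kept their sign in all 29 alternatives, and those of mitosis, DNA replication, S phase and p53 targets turned in 1. Alternatives that only dropped other whole groups or changed the estimate of the spread could not move these medians. TPM carry no read depth, so precision at low values is unknown.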
